A study of Mus musculus with 3 samples.

Results

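The splicing factors described here are the SR proteins, the hnRNPs, the SF3A and SF3B subunits, the Sm and other snRNP proteins, and the U2AF subunits. Members were chosen by gene symbol among the array probes that carry a RefSeq mRNA accession, and Snrpn was left out. This gave 55 genes with 94 probes, of 20027 genes with 29679 such probes, and all 55 protein-coding genes of the name rule had at least 1 probe. By family they were 11 SR genes with 19 probes, 21 hnRNP genes with 39, 9 SF3 genes with 13, 11 Sm/snRNP genes with 17 and 3 U2AF genes with 6.

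Introns are removed from a pre-mRNA by the spliceosome, a machine built from small nuclear ribonucleoproteins (snRNPs) whose cores are rings of Sm proteins. The U2AF heterodimer reads the 3′ end of an intron and helps the U2 snRNP, with its SF3A and SF3B subunits, to settle on the branch point. SR proteins mostly bind exons and favour their inclusion, whereas hnRNPs coat pre-mRNA and often act against it. Early embryos depend on splicing, since new transcripts replace the maternal store before the blastocyst forms.

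RNA from mouse blastocysts was measured on 3 one-colour Agilent arrays (Cy3), 1 array for each group. By the labels, embryos came from superovulated ICR females mated to males, were collected as zygotes and were cultured in KSOM medium for 96 h. Mothers were 3 to 6 weeks old in the young group and 43 to 53 weeks old in the aging group, and neither group was treated. In the suppressed aging group mothers were also 43 to 53 weeks old, and the medium held 10 μg/ml anti-CXCL5 antibody and 10 nM of an antagonist of CXCR2, the CXCL5 receptor, so the antibody and the antagonist cannot be told apart. Each array held a pool of 30 expanded blastocysts and no replicates were made, so no difference below has an error between embryos or a test. In pools of whole blastocysts, fewer cells of a type and less RNA per cell cannot be told apart. A level below is the log2 intensity of a probe minus the 75th percentile of its array, so that a log2 difference of 1 is 2-fold. A gene is represented by its brightest probe unless said otherwise.

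The 3 arrays were alike in the share of probes detected, but the suppressed aging array was dimmer. Its median local background was 29, against 39 in young and 39 in aging. The intensity at its 75th percentile was 122, against 145 and 155. Its detection limit, as a level defined above, was -3.93, against -4.20 and -4.32. The scanner software called 56.4% to 58.7% of 56605 probes well above background, no spot was saturated, and the spread between repeated spots of a probe was 0.045 to 0.053 (SD, log2). Markers of trophectoderm (7 of 7), inner cell mass (5 of 5) and primitive endoderm (4 of 4) were above background on all 3 arrays. Between aging and young, 5 of 7 trophectoderm markers were lower, with a median of -0.19 and Tfap2c at -1.16, and 4 of 5 inner cell mass markers were higher, with a median of 0.34, Sox2 at 1.37 and Fgf4 at 1.12. Between suppressed aging and aging, 6 of 7 trophectoderm markers were higher, with a median of 0.21, and 4 of 5 inner cell mass markers lower, with a median of -0.11. Primitive endoderm markers were split between aging and young, with Gata6 (0.99) and Pdgfra (1.28) higher and Gata4 (-0.04) and Sox17 (-1.53) lower, and a median of 0.47. Between suppressed aging and aging 1 was higher and 3 lower, with a median of -0.36. Of 5 cumulus and granulosa markers, 3 were above background on all arrays, with Foxl2 as bright as 8.66 in young blastocysts, and Fshr and Inha were above background on none. Of 5 maternal oocyte markers, 1 was above background on all arrays and 4 on at least 1, and their summed intensity was 72.8 in young, 269 in aging and 68.1 in suppressed aging blastocysts. Of 3 blood markers with a probe, 1 was above background on all arrays, and the summed intensity was 137, 242 and 63.2 in the same order. The part of these cell type markers and other transcripts in the differences below was not tested.

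Nearly every splicing factor was bright on every array. Of the 94 probes, 92 (97.9%) were well above background on all 3 arrays, against 62.5% of all probes named through a RefSeq mRNA. The brightest probe was above the 75th percentile of every array for 54 of the 55 genes (98.2%), against 34.2% of all genes. The median level over all members was 4.45 in young, 4.18 in aging and 4.15 in suppressed aging blastocysts, where the medians over all genes were -1.39, -1.30 and -1.33. A probe's brightness depends on its own sequence and place in the transcript, so neither the genes nor the families are ranked by level.

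**Figure D1:**
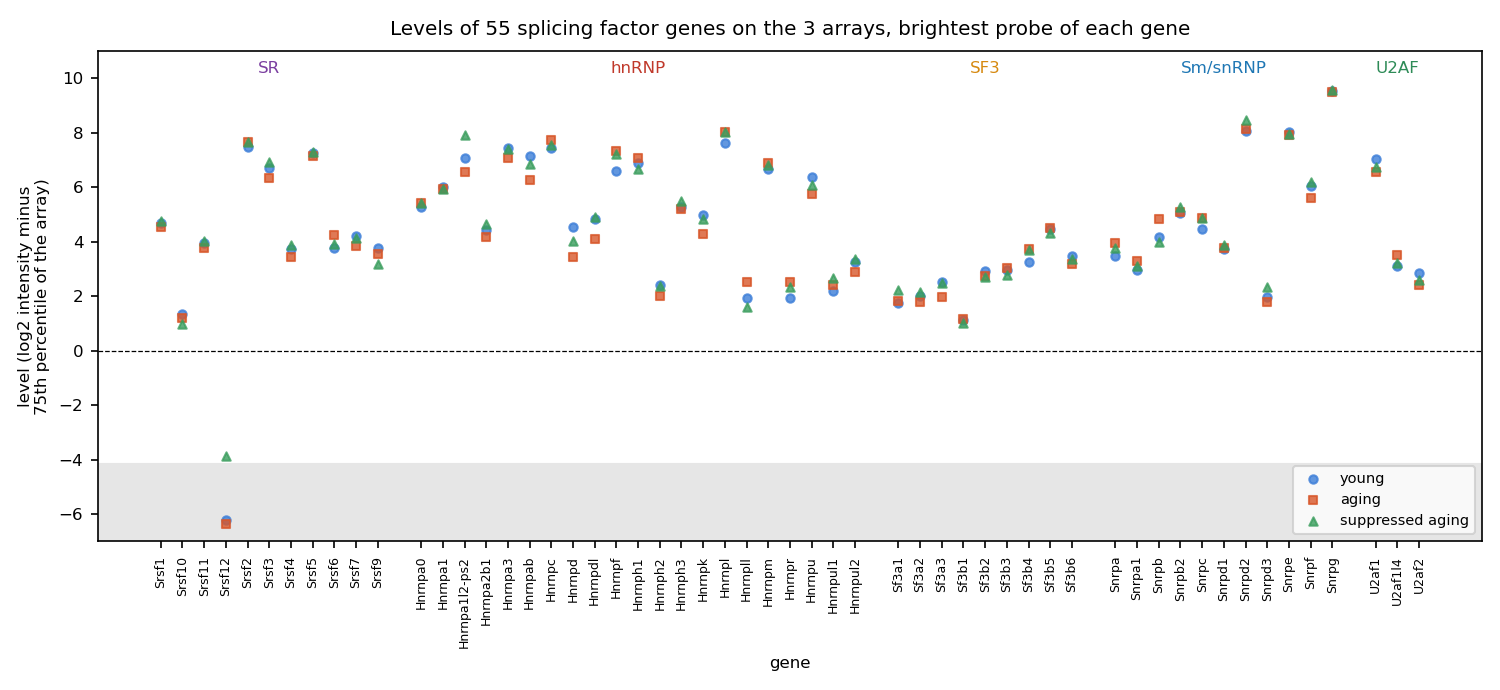
Level of each of the 55 splicing factor genes at its brightest probe (vertical axis, log2 intensity minus the 75th percentile of the array, which is the dashed line), with genes grouped by family along the horizontal axis and 1 marker for each array. The grey band lies below the mean detection limit of the 3 arrays. All genes but Srsf12 sit above the dashed line, and the 3 markers of a gene lie close together, with a median range of 0.398.

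Among the SR proteins, the median level was 3.96 in young, 3.84 in aging and 4.02 in suppressed aging blastocysts. The probe of Srsf2, which encodes the exon-binding protein SC35, read 7.47, 7.68 and 7.65. Srsf5 lay at 7.26, 7.14 and 7.28, and Srsf3, the smallest SR protein, at 6.70, 6.33 and 6.92. Srsf10, a splicing repressor when dephosphorylated, read 1.35, 1.19 and 0.99. Srsf12 stood alone: its only probe was not well above background on the young and the aging array, and lay at -3.87 on the suppressed aging array, just over that array's detection limit of -3.93. The suppressed level was at least 0.33 (log2) above the young and at least 0.45 above the aging array, and these bounds rest on a signal next to the detection limit.

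The hnRNP medians were 5.28, 5.41 and 5.50 on the young, aging and suppressed aging array, and all 21 genes were above the 75th percentile of every array. Hnrnpl, which binds CA-rich RNA, read 7.63 on the young array and 8.03 and 8.02 on the other arrays. Hnrnpll, its close relative known from lymphocytes, read 1.92, 2.53 and 1.62. Hnrnpa1, an hnRNP that competes with SR proteins for exons, was nearly level at 6.01, 5.95 and 5.92. A dim hnRNP signal came from 1 of 5 probes of Hnrnpr, at -3.27 on the young array and not well above background on the other two.

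The SF3 genes, which hold the branch point, had medians of 2.93, 2.75 and 2.69. Sf3b1, the largest SF3B subunit and one often mutated in myelodysplasia, read 1.14, 1.15 and 1.03, and Sf3b5, a small SF3B subunit, read 4.49, 4.51 and 4.32. The Sm/snRNP medians were 4.48, 4.88 and 4.88. Snrpg, which encodes the Sm ring protein SmG, had a probe that was spotted 10 times on each array. It read 9.52 ± 0.050 in young, 9.48 ± 0.057 in aging and 9.58 ± 0.053 in suppressed aging blastocysts (SD over 10 spots), so that the 3 means lay within 0.10 of each other and the lowest and highest spots of the arrays overlapped. Snrpd3 (SmD3) read 1.97, 1.81 and 2.34. U2af1, the small U2AF subunit that contacts the AG at the intron end, lay at 7.04, 6.58 and 6.74, and U2af2, the large subunit that binds the polypyrimidine tract, at 2.86, 2.40 and 2.60.

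Promoters of 5 members are shown as examples. Srsf3, Srsf5 and Hnrnpa3 kept 1 direction at all their probes in aging against young and in suppressed aging against aging. Srsf12 was barely detected and Hnrnpa1l2-ps2 crossed 2-fold. Other members that kept 1 direction, among them Snrpb and Srsf6 with their highest readings on the aging array, are not shown. Nor is Hnrnpd, which also crossed 2-fold. The sequences come from RefSeq on GRCm38.p6, whose table had an entry for 48 of the 55 members, and each shows the 120 bases just before the annotated start, read along the gene's strand. Capitals mark matches on either strand to the GC box (GGGCGG), the CCAAT box (CCAAT), an ETS site (CCGGAAG), the TATA box (TATAAA) or the core of a CRE (TGACG), and matches may overlap.
Srsf3 (chr17:29032540-29032659, + strand): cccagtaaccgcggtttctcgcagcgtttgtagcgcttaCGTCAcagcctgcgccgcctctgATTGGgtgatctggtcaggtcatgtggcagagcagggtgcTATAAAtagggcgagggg
Srsf5 (chr12:80945379-80945498, + strand): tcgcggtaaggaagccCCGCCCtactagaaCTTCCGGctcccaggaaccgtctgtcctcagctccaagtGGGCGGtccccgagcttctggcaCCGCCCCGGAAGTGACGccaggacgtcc
Hnrnpa3 (chr2:75659139-75659258, + strand): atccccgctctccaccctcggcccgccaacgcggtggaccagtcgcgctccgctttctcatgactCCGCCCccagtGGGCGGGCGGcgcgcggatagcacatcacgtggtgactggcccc
Srsf12 (chr4:33209152-33209271, + strand): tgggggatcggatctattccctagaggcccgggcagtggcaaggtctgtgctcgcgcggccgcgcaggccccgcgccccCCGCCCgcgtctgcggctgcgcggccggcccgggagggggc
Hnrnpa1l2-ps2 (chr15:22714985-22715104, - strand): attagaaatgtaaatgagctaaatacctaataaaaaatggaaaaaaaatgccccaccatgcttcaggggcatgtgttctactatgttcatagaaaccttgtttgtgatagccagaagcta

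The first 4 windows were rich in G and C, with 59.2% in Srsf3, 66.7% in Srsf5, 71.7% in Hnrnpa3 and 79.2% in Srsf12. Srsf12, the gene at the detection limit, thus had a promoter with 17 CpG, whereas Hnrnpa1l2-ps2, one of the bright genes, had 35.0% G and C and 0 CpG. Over the full 250 bases upstream, the 48 members had a median of 19 CpG, against 6 over 27025 genes with an entry and 17 over 5620 genes above the 75th percentile on all 3 arrays. A GC box was present in 68.8% of the members, 32.9% of all genes and 60.1% of the bright genes. The ETS letters were present in 15 members (31.2%), against 7.05% of all and 16.5% of bright genes. For the CRE core the shares were 39.6%, 17.9% and 29.3%, for the CCAAT box 45.8%, 34.5% and 37.8%, and for the TATA box 12.5%, 13.0% and 6.46%. These are matches of letters and not sites of binding, and motifs made of G and C grow more frequent with the content of both.

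Aging and young blastocysts were compared first, to see which splicing factors differ with maternal age. Most differed little. Over 54 genes that could be compared, 24 were higher (44.4%) and 30 lower in aging blastocysts, and the median log2 difference was -0.09. Of all genes 52.8% were higher, with a median of 0.04, and of the bright genes 55.1%, with a median of 0.06. The members' median size was 0.29, against 0.44 over 14749 genes and 0.33 over the 6857 genes above the 75th percentile on all arrays. Only 1 member was more than 2-fold apart (1.85%), against 18.8% of all genes and 7.12% of the bright genes. No member was more than 5-fold apart, against 2.51% of all genes and 0.467% of the bright genes.

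That gene was Hnrnpd, which encodes AUF1, a protein that binds AU-rich elements and hastens mRNA decay. Its level was 4.56 in young, 3.44 in aging and 4.04 in suppressed aging blastocysts, a log2 difference of -1.11 between aging and young. A second probe of Hnrnpd did not show it, at 3.41, 3.56 and 3.54, a difference of 0.15. The lower reading in aging blastocysts thus belonged to 1 of 2 probes.

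Among the SR proteins, 8 of 10 were lower in aging blastocysts, with a median of -0.18 and a lowest value of -0.37 in Srsf3, where 52.8% of all genes were higher. The exceptions were Srsf6, which was 0.45 higher, and Srsf2, which was 0.21 higher. With the mean over a gene's probes, 6 SR genes were lower and 4 higher, with a median of -0.11. Of the hnRNPs, 12 were lower and 9 higher, with a median of -0.09. Below Hnrnpd in size came Hnrnpab, a relative that shuttles between nucleus and cytoplasm, at -0.87, then Hnrnpdl at -0.71, Hnrnpk, which binds C-rich RNA, at -0.70 and Hnrnpu, the scaffold attachment factor, at -0.60. At the other end lay Hnrnpf, which binds G tracts, at 0.72, and Hnrnpll and Hnrnpr, each at 0.61. The SF3 genes had a median of 0.00, with 5 higher and 4 lower, from -0.56 in Sf3a3 to 0.49 in Sf3b4. In the Sm/snRNP family, whose median was 0.05, 7 genes were higher and 4 lower, from -0.44 in Snrpf to 0.69 in Snrpb, the gene of SmB. Both subunits of the U2AF heterodimer were lower, at the same -0.46, and the U2af1 relative U2af1l4 was 0.38 higher.

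Suppressed aging blastocysts were compared with aging blastocysts to see what differs once CXCL5-CXCR2 signaling is suppressed. Here 33 of 55 members were higher after suppression (60%) and 22 lower, with a median of 0.16. Of all genes 49.6% were higher, with a median of -0.004, and of the bright genes 50.2%, with a median of 0.002. The 33 include Srsf12, detected only on the suppressed aging array, which the rule on bounds could count only as higher. Among the 54 members above background on all arrays, 32 were higher, with a median of 0.15. The members' median size was 0.27, against 0.41 over 14531 genes and 0.28 over the bright genes. A member was more than 2-fold apart in 1 case (1.82%), against 17.2% of all genes and 5.85% of the bright genes. The median of the members depended on the processing, and lay at -0.0040 after normexp background correction. This comparison and the one before share the aging array, so a low or high reading there enters both with opposite sign, and neither is independent of the other.

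The gene past 2-fold was Hnrnpa1l2-ps2, an Hnrnpa1-like gene that carries a pseudogene's name and is listed as protein coding. Its only probe read 7.09 in young, 6.58 in aging and 7.91 in suppressed aging blastocysts, a difference of 1.34 between suppressed aging and aging. Hnrnpa1, the gene it resembles, differed by -0.03 at its brightest probe and by 0.13 at its second. Whether it also binds transcripts of near-identical copies was not tested.

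Of the hnRNPs, 13 were higher and 8 lower after suppression, with a median of 0.31. Hnrnpdl stood at 0.81 with levels of 4.82, 4.11 and 4.93 on the young, aging and suppressed aging array, and Hnrnpd at 0.60. Hnrnpab, at 7.14, 6.28 and 6.87, was 0.59 higher, and Hnrnpll was lower at -0.91. The SR proteins had a median of 0.22, with 7 higher and 4 lower. Srsf3 was highest at 0.59 and Srsf4, a larger SR protein, stood at 0.43, while Srsf9, a short one, was lowest at -0.34. The Sm/snRNP family ran from -0.84 in Snrpb to 0.59 in Snrpf, with a median of 0.10, and the SF3 family from -0.23 in Sf3b3 to 0.54 in Sf3a3, with a median of -0.06. U2af1 and U2af2 were 0.16 and 0.20 higher, and U2af1l4 was lower at -0.28. The medians of the SF3, Sm/snRNP and U2AF families changed sign under at least 1 other processing.

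Suppressed aging and young blastocysts were compared last. Of 55 members, 33 were higher (60%) and 22 lower in the suppressed group, with a median of 0.11. Of all genes 53.2% were higher, with a median of 0.04, and of the bright genes 56.6%, with a median of 0.06. The 33 again include Srsf12. Among the 54 members above background on all arrays, 32 were higher, with a median of 0.10. The members' median size was 0.16, against 0.38 over all genes and 0.27 over the bright genes. No member was more than 2-fold apart, against 16.1% of all genes and 6.43% of the bright genes. The largest difference was again that of Hnrnpa1l2-ps2 at 0.82, and Hnrnpf followed at 0.62. On the lower side were Srsf9 at -0.59, from 3.79 to 3.19, and Hnrnpd at -0.51. The second probes of Hnrnpf, Srsf9 and Hnrnpd had the other sign, at -0.32, 0.36 and 0.14, and Hnrnpa1l2-ps2 had no second probe. The Sm/snRNP median was 0.15 with 9 of 11 higher. The hnRNP median was 0.11, the SR median 0.09 (0.07 without Srsf12), the SF3 median -0.08 and the U2AF median -0.26. The hnRNP, SR and U2AF medians of this comparison each changed sign in 1 of 9 other settings, as the SF3 median of aging against young did in 3.

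**Figure D2:**
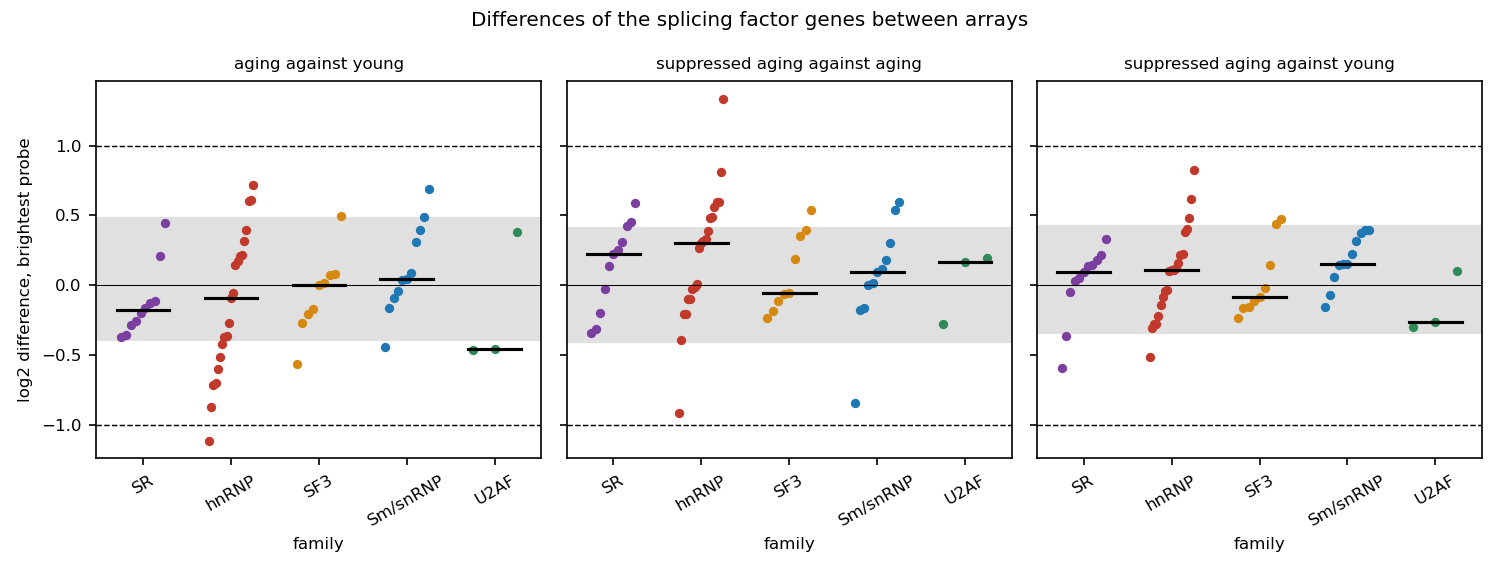
Log2 difference of each splicing factor gene at its brightest probe (vertical axis), by family (horizontal axis), in the 3 comparisons. Points are genes, the short bar is the family's median, dashed lines mark 2-fold and the grey band spans the quartiles over all genes compared. Hnrnpd lies below the lower dashed line in aging against young, Hnrnpa1l2-ps2 above the upper one in suppressed aging against aging, and no gene crosses either line in suppressed aging against young.

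Set side by side over the 3 arrays, the 54 genes above background on all of them spanned a median of 0.398 (log2) between their highest and lowest array, and 52 spanned less than 1 (96.3%). The exceptions were Hnrnpd and Hnrnpa1l2-ps2. Over all genes above background on every array the median span was 0.626 and 73.2% spanned less than 1, and over the bright genes 0.493 and 86.6%. The plot of difference against level shows the members within the bright end of the array, where differences were smaller for all genes.

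**Figure D3:**
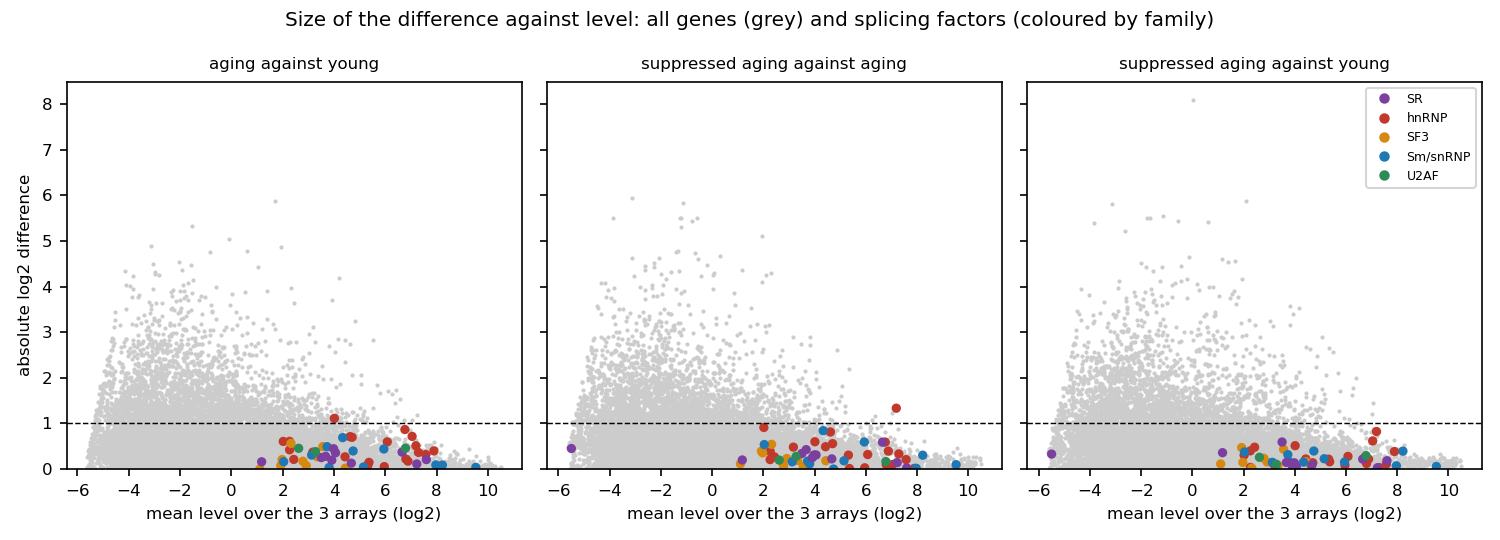
Size of the log2 difference between 2 arrays (vertical axis) against the mean level of a gene over the 3 arrays (horizontal axis, log2). Grey points are all genes compared and coloured points the splicing factors by family, with the dashed line at 2-fold. The coloured points lie at the bright end and under the dashed line, except Hnrnpd in the left and Hnrnpa1l2-ps2 in the middle panel, and Srsf12 lies at the dim end.

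The agreement of probes was examined in the 30 members with 2 or more probes above background on all arrays. Between aging and young, the brightest and the second probe differed in the same direction in 15 of 30 genes (50%), where all 4555 genes with such probes gave 56.9%. Between suppressed aging and aging it was 17 of 30 (56.7%, all genes 54.5%), and between suppressed aging and young 16 of 30 (53.3%, all genes 56.1%). With both probes above the 75th percentile on all arrays, 15 of 28 members (53.6%) agreed in each comparison. Over 1829 such genes the shares were higher, at 60.9%, 58.2% and 59.7%. Probes of 1 gene thus often disagreed on the direction of these small differences. The median gap between the differences at both probes was 0.33, 0.28 and 0.27, where the median size of the difference over all members was 0.29, 0.27 and 0.16. Across the 30 genes, Pearson's r between the probes was 0.12, 0.32 and 0.03, and these genes share their arrays and are not independent replicates.

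**Figure D4:**
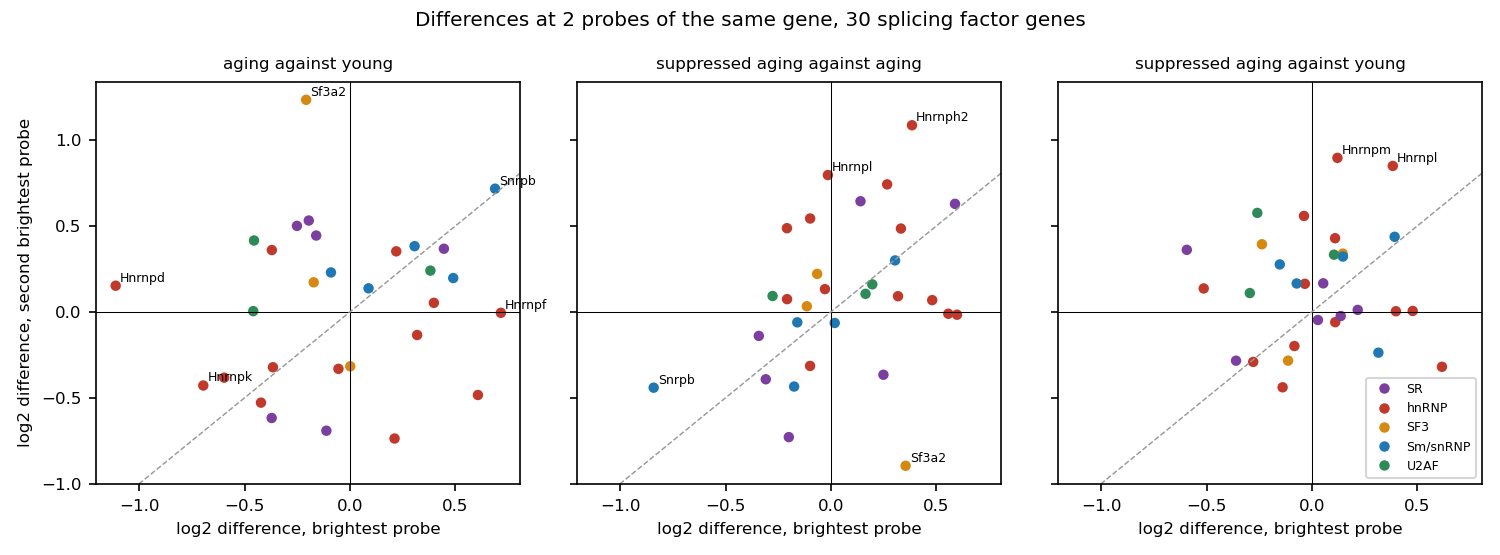
Log2 difference at the second brightest probe (vertical axis) against that at the brightest probe (horizontal axis) of 30 splicing factor genes in the 3 comparisons, with points coloured by family and equal values on the dashed line. Points at the lower left and upper right of the solid axes agree in direction, which held for 15, 17 and 16 of the 30 genes.

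Some genes did agree at every probe. All 3 probes of Hnrnpa3, an hnRNP of the A/B type, were lower in aging than in young blastocysts, from 6.09 to 5.65, from 6.79 to 6.46 and from 7.43 to 7.06, and were higher in suppressed aging, at 6.37, 6.95 and 7.39. The 3 probes of Snrpb went the other way, from 1.80 to 2.45, from 2.72 to 3.44 and from 4.16 to 4.85, with 2.17, 3.00 and 4.01 in suppressed aging. These were the only genes of the 6 with 3 or more probes whose probes all agreed in either of these comparisons. Over all genes with 3 or more such probes the share was close to these 2 of 6. It was 300 of 952 in aging against young and 285 of 952 in suppressed aging against aging.

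Among genes with 2 probes, Srsf3 read 4.83, 4.21 and 4.84 at its second probe on the young, aging and suppressed aging array, beside 6.70, 6.33 and 6.92 at its brightest. Srsf5 read 4.78, 4.08 and 4.73 beside 7.26, 7.14 and 7.28, so that the size of its difference depended on the probe. Both genes had their lowest reading on the aging array at both probes. Srsf6 showed the opposite order at both, with 1.88, 2.25 and 1.86 beside 3.79, 4.24 and 3.93. Hnrnph2, which binds G-rich RNA, was lowest on the aging array at 2.42, 2.00 and 2.39 and, at its second probe, at 1.36, 0.83 and 1.91, and Hnrnpu at 6.37, 5.77 and 6.09 and at 4.75, 4.37 and 4.46. Snrpd2 (SmD2) was highest on the suppressed aging array at both probes, at 8.06, 8.15 and 8.46 and at 5.17, 5.31 and 5.61.

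Others disagreed. Sf3a2, an SF3A subunit, read 1.99, 1.79 and 2.14 at one probe and 0.74, 1.97 and 1.08 at the other, a difference between aging and young of -0.21 at the first and 1.24 at the second. U2af2 was lower in aging by -0.46 at its brightest probe and 0.42 higher at its second, and U2af1 differed by -0.46 and 0.00, so the lower U2AF reading rested on the brightest probes. Srsf9 differed by -0.25 and 0.50, and Srsf10 by -0.16 and 0.45. Hnrnpf differed by 0.72 at 1 probe and by -0.01 at the other. Hnrnpk kept its direction in aging against young (-0.70 and -0.43), as did Hnrnpu (-0.60 and -0.38).

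Hnrnpr, which encodes an RNA-binding protein close to Syncrip, had the most probes. Its brightest probe was highest on the aging array, at 1.93, 2.54 and 2.33. The next 3 were lowest there, at 1.88, 1.40 and 1.88, at 0.98, 0.36 and 0.70, and at -1.19, -3.58 and -2.17. The dimmest, at -3.27 on the young array, was not well above background on the other two, which puts its difference between aging and young at -1.05 or lower. Among the 4 probes above background on all arrays, 3 pointed down and the brightest pointed up. Srsf11 was similar, with 3 probes lower in aging (by -0.20, -0.28 and -0.38) and 1 higher (0.53).

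**Figure D5:**
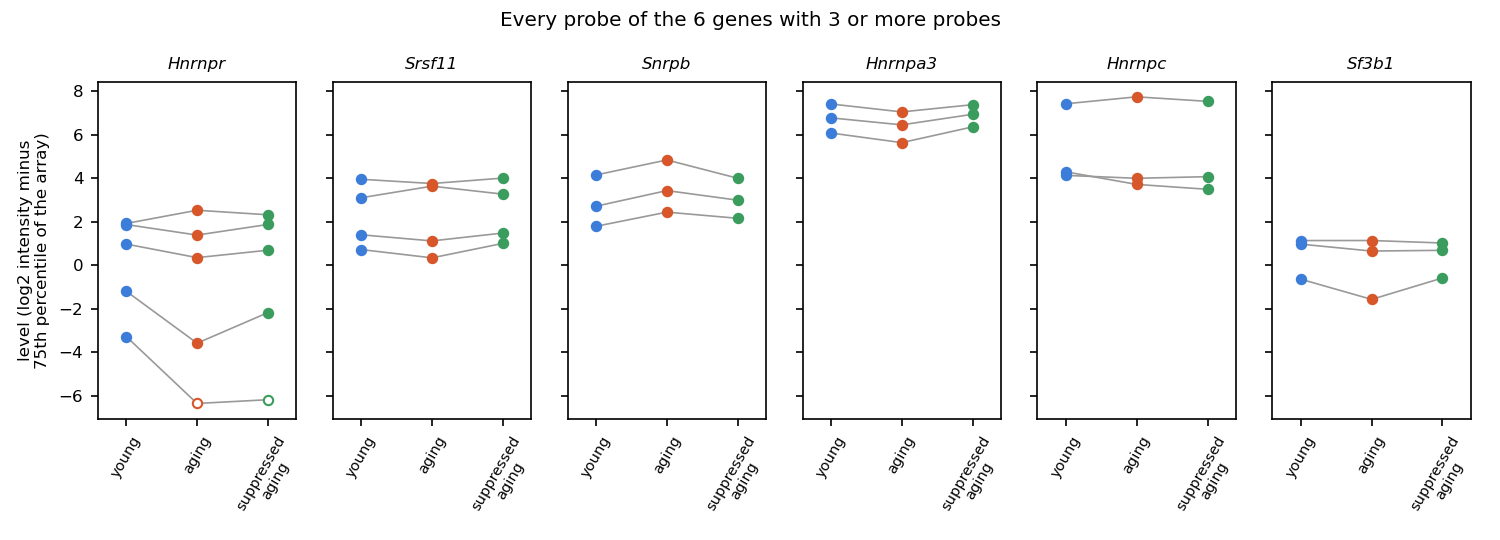
Level of every probe (vertical axis, log2 intensity minus the 75th percentile of the array) on the young, aging and suppressed aging array (horizontal axis) for the 6 members with 3 or more probes. Lines join the readings of 1 probe, and open circles are not well above background. The 3 lines of Snrpb and of Hnrnpa3 run in parallel from young to aging, while those of Hnrnpr, Srsf11 and Hnrnpc do not.

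Counted over single probes, 4 of 93 member probes were more than 2-fold apart between aging and young (4.30%), against 20.1% of all probes. They were the brighter Hnrnpd probe, the second Sf3a2 probe and the 2 dimmest Hnrnpr probes. Between suppressed aging and aging 3 of 93 were (3.23%), against 18.4%: the Hnrnpa1l2-ps2 probe at 1.34, the second Hnrnph2 probe at 1.09 and the fourth Hnrnpr probe at 1.41. Between suppressed aging and young 0 of 94 were, against 17.0%. Probes of 1 gene differed far more from each other in level than the arrays did, with a median gap of 2.33, 2.38 and 2.10 between the brightest and dimmest probe on the 3 arrays and a widest gap of 6.42 in Hnrnpl. The order of a gene's probes was the same on all 3 arrays in 27 of 30 members (90%), against 74.2% of all such genes. Hnrnpc, Hnrnpd and Sf3a2 were the exceptions. Over all such genes the median gaps were narrower, at 1.73, 1.79 and 1.77. The part of the wider gaps in the members' share was not tested.

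Other splicing genes came from 4 lists: core spliceosome subunits, exon junction and export factors, SR kinases and phosphatases, and further splicing regulators. The list of kinases and phosphatases also holds carriers of SR proteins and the SR-related Srrm1 and Srrm2. Each gene is given at its brightest probe, and agreement with a second probe was not examined gene by gene. All 128 genes had a probe. Of those compared, 10 of 126 (7.94%) were more than 2-fold apart between aging and young, 11 of 126 (8.73%) between suppressed aging and aging and 11 of 125 (8.80%) between suppressed aging and young, with medians of 0.03, 0.03 and 0.13. Against the shares over all genes (18.8%, 17.2% and 16.1%) and over bright genes (7.12%, 5.85% and 6.43%), these lay nearer to the bright genes.

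All 55 core spliceosome genes were above background on all arrays. In aging against young, Cdc40, which acts late in splicing, was 2.14 higher, and those lower included Prpf3 of the U4/U6 snRNP (-1.45) and Crnkl1 (-1.40). Cdc40 read low on 2 arrays, at -2.08, 0.06 and -1.72 on the young, aging and suppressed aging array. After suppression Puf60, a U2AF-related factor, was 1.48 higher than in aging, and Cdc40 (-1.78) and Zrsr2, a U2af1 relative of the minor spliceosome (-1.60), were lower. Prpf3 was low on both aging arrays, at 4.69, 3.24 and 3.31 on the young, aging and suppressed aging array. Prpf19 was higher and Prpf3, Rnpc3 and Zrsr2 lower in suppressed aging than in young blastocysts. Prpf19 read low on every array, at -2.57, -1.80 and -1.22.

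The 17 exon junction and export genes were also above background on all arrays. Nxt1, the partner of the export receptor, was 1.32 higher in aging than in young, the exon junction helicase Eif4a3 1.40 higher after suppression than in aging, and Thoc5 1.08 higher in suppressed aging than in young. The list of SR kinases and phosphatases, with carriers, Srrm1 and Srrm2, held 14 genes. Srpk2, a kinase that readies SR proteins for the nucleus, was lower in aging (-1.21) and Ppp1r8 higher (1.98). Srpk2 read -1.35, -2.56 and -2.18 on the young, aging and suppressed aging array, and Ppp1r8 -1.21, 0.77 and -0.53. After suppression Clk4, a nuclear SR kinase, was 1.18 higher, and Ppp1r8 (-1.30) and the speckle protein Srrm2 (-1.28) were lower.

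Of 42 other regulators, 38 were above background on all arrays and 2 on none. In aging against young, Khdrbs3 (1.57) and Matr3 (1.06) were higher and Mbnl2 lower (-1.21). After suppression Rbm5 was 1.76 higher, at 2.27, 2.12 and 3.88 on the young, aging and suppressed aging array, and Rbfox2 was lower (-1.10). Rbfox1, not well above background on the aging array, was at least 2.47 (log2) higher after suppression, and Khdrbs3, not well above background on the suppressed aging array, differed by -2.09 or lower. These bounds rest on dim probes. On the young array Khdrbs3 (-3.42) and Rbfox1 (-3.64) were also near the detection limit, which bears on their differences from young. In suppressed aging against young, Rbfox1 (1.79), Rbm5 (1.61) and Matr3 (1.52) were higher and Mbnl2 (-1.24) and Rbfox2 (-1.42) lower.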

How the data were processed

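Blastocyst RNA of 3 groups was measured on 1 array each. The deposited values are linear spot intensity, as written by Feature Extraction 12.0.3.1 after background subtraction, without scaling between arrays. The deposited value table holds the same intensity times 1 factor per array. Here, control and outlier spots were left out (85 to 118 spots an array), replicate spots were averaged as log2 intensity per probe, and each array was set to 0 at its 75th percentile. Probes were named through RefSeq mRNA accessions with a gene table of GRCm38.p6, used for names and promoters, since the array design names an older build. A gene is the probe with the highest mean level. Where 1 side was not well above background, the higher of its own level and that array's lowest level well above background was used. This gives a bound, and the comparison was left out if the detected side was not the higher one. Counts use more than 2-fold. With 1 array a group no test was made, and the number of arrays limits the precision. Members, lists and rules were chosen with earlier results of these data known. Values are given for members over 2-fold apart, with 2 or more probes, at the ends of a family's levels or not detected on an array. Other members with values, named for the size of their differences, were chosen after these were seen. The alternatives were median centring, quantile normalization, normexp (limma 3.58.1, offset 50), the authors' values, outlier spots kept, the mean over probes, other filters on dim probes, probes of any RefSeq accession (chosen after seeing the data) and 5-fold. The script that counts genes past a fold was checked on simulated data, which says nothing about the spread between embryos. Python 3.11.15, NumPy 2.4.6, pandas 2.3.3, Matplotlib 3.10.9 and R 4.3.3 were used. The methods and the labels name different amplification kits, and which was used is not known.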

Additional observations from a re-analysis of the deposited data

How the results depend on the processing

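Over 9 other settings of scaling, background correction, probe choice and filtering, at least 45 of 54 members kept their direction in aging against young, 47 of 55 in suppressed aging against aging and 46 of 55 in suppressed aging against young. The median levels of the families, recomputed as 75 values, moved by -0.89 to 0.05 (log2). The SR and hnRNP median differences kept their sign in all 9 settings for the first 2 comparisons, from -0.19 to -0.11 and from -0.26 to -0.03 in aging against young, and from 0.05 to 0.23 and from 0.22 to 0.32 in suppressed aging against aging. All settings use the same 3 arrays, and some hardly change the values. The SR median of aging against young, for example, stayed at -0.18 with outlier spots kept and with probes of any RefSeq accession. A median over all members was taken as moved when it shifted by more than 0.07, the combined SD of replicate spots. In suppressed aging against aging it moved to 0.048 under quantile normalization, to -0.0040 under normexp and to 0.075 with the authors' values. The median over all genes was -0.004 before, and -0.035, 0.019 and -0.092 in these settings. The authors' values hold the same intensity times 1 factor per array, and the median over all genes shifted with them too. In suppressed aging against young the members' median moved to -0.0074 under normexp. The number of members past 2-fold became 0 in aging against young with the mean over probes, which put Hnrnpd at -0.48. It became 2 in suppressed aging against aging with the authors' values (Hnrnpll joined) and without a filter on dim probes (Srsf12 joined), and 1 in suppressed aging against young without the filter (Srsf12). At more than 5-fold it was 0 in all 3 comparisons. The shares past 5-fold were 2.51%, 2.22% and 2.27% of all genes and 0.467%, 0.335% and 0.656% of the bright genes. With all pairs of probes in place of the brightest pair, 27, 29 and 25 of 48 pairs agreed in direction in the 3 comparisons. The causes were not tested. A choice by gene name could not be run, because the files used hold no such column, and normexp leaves the scanner's background calls as they are. No paired analysis was possible because each group has 1 array. Without replicates, a difference of the size seen between 2 probes of a gene cannot be read as a difference between embryos.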
